A study of Mus musculus with 23 samples.

Results

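The genes that let a neuron make, package and clear its fast transmitter were followed in 3 neuronal populations of the mouse hippocampus. They were 8 named genes, Slc17a6, Slc17a7, Slc17a8, Slc32a1, Gad1, Gad2, Slc1a1 and Slc12a5, out of 45706 in the deposited table, chosen by name for their roles in glutamate and GABA synthesis and transport. Polyadenylated RNA was sequenced in 23 libraries from 3 populations called CamK, Grik and SST, from wild-type animals (WT) and from animals in which SLM2, a splicing regulator, had been knocked out conditionally (cKO). The study set out to compare expression and splicing between genotypes in CA1 and CA3 excitatory cells and somatostatin-positive inhibitory cells. CamK and Grik cells were labelled as excitatory pyramidal cells and SST cells as somatostatin-positive interneurons. There were 4 libraries of CamK WT, 3 of CamK cKO, and 4 each of Grik WT, Grik cKO, SST WT and SST cKO. The alleles and drivers behind the population names, the deleted exons, the ages of the mice and the way the cells were isolated are not given in the sources used here. Nothing states that replicates were separate animals, so p-values measure the spread between these libraries only.

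Excitatory neurons fill their synaptic vesicles with glutamate through vesicular glutamate transporters, and hippocampal pyramidal cells are known for using mainly the one encoded by Slc17a7. Inhibitory neurons make GABA from glutamate with the glutamate decarboxylases encoded by Gad1 and Gad2 and load it with the vesicular transporter encoded by Slc32a1. GABA then opens chloride channels, and the chloride extruder encoded by Slc12a5 keeps chloride low inside mature neurons, whereas the transporter encoded by Slc1a1 takes glutamate and cysteine back up into neurons.

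Gene reads per library numbered 87612006 to 112993538. Levels are given as CPM, gene counts scaled to library size, as edgeR computes them, after adjustment by the trimmed mean of M-values. All 8 genes passed the filter on low counts, which left 18823 genes for testing. Marker genes were measured in every library to check the labels. The summed level of 5 excitatory markers was 6684 to 8299 CPM in the CamK and Grik libraries and 781 to 1095 CPM in SST. The sum of 10 inhibitory markers was 10.7 to 42.0 CPM in CamK and Grik and 2086 to 3967 CPM in SST, and no marker of either list was at 0 reads in any library. Sst itself ranged from 159 CPM in SST WT replicate 2 to 2125 CPM in SST cKO replicate 3, against 3.87 to 10.6 CPM in the other populations. Vip, a marker of another class of interneuron, went against the rest of the inhibitory list, at 4.98 to 17.1 CPM in Grik and 0.342 to 3.37 CPM in SST. Khdrbs3, the gene of SLM2, averaged 336 ± 8.61 CPM in Grik WT and 414 ± 18.02 CPM (SD, n = 4 each) in the Grik libraries labelled cKO. In CamK it averaged 373 ± 27.0 CPM in WT (SD, n = 4) and 278 ± 25.1 CPM in cKO (SD, n = 3), and in SST 130.2 ± 8.31 and 93.8 ± 10.5 CPM (SD, n = 4 each). The label cKO and the total count were thus at odds in Grik, and "cKO" stands for the label alone.

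The starts of the 3 GABA genes and of Slc17a7 and Slc17a6 are shown first, since the GABA genes shared a high level in SST libraries and these vesicular glutamate transporters had opposite orders in CamK and Grik. The sequences lie upstream of the RefSeq start sites in GRCm38.p6 and are written along the gene's strand, which was the plus strand for these 5 genes. They are chr2:70561879-70562041 for Gad1, chr2:22622077-22622204 for Gad2, chr2:158610508-158610757 for Slc32a1, chr7:45163671-45163920 for Slc17a7 and chr7:51621580-51621829 for Slc17a6. The Gad1 and Gad2 stretches stop before the first annotated exon in the window, which leaves out the E-box of Gad2. The RefSeq start site of Gad1 is 9057 bases past the GENCODE start of the gene. The Gad1 stretch, with its TATA box, therefore lies inside the annotated gene. Capitals mark an E-box (CANNTG), the letters read by basic helix-loop-helix factors, or a TATA box (TATAAA on either strand).
Gad1: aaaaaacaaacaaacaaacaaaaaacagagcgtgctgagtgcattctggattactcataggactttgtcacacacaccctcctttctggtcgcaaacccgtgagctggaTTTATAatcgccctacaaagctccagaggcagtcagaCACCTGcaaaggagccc
Gad2: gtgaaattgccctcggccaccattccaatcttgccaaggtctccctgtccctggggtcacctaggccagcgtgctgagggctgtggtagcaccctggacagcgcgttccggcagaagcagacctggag
Slc32a1: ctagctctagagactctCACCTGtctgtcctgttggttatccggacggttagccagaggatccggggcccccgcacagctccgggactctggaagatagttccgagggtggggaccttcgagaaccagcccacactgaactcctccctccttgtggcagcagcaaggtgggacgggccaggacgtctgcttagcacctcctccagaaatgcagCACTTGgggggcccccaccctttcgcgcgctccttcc
Slc17a7: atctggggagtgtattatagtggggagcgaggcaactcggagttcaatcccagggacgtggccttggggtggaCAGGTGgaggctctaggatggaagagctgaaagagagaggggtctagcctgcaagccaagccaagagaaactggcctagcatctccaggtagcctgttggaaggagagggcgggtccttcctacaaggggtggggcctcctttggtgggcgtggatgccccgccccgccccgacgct
Slc17a6: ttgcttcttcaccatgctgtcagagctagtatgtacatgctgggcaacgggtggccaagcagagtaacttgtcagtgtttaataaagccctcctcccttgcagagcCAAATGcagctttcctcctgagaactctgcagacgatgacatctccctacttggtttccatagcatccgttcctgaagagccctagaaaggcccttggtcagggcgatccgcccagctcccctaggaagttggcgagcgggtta

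RefSeq entries were found for all 8 genes, 11 promoters in all, and both strands of the 250 bases upstream of each start were searched. The first entry held 2 E-boxes in Slc32a1 and Slc17a8, 1 in Gad1, Gad2, Slc17a7, Slc17a6 and Slc12a5, and 0 in Slc1a1. Since 66.2% of 32851 mouse promoters of this length held an E-box, these matches do not set the genes apart. A TATA box was found in Gad1 alone among the 11 entries, against 12.4% of all promoters. The homeobox core TAATTA, found in 4.84% of promoters, was in the second entries of Slc17a6 and Slc17a8 and in none of the other 9. No E-box overlapped a match of another motif in these windows. A match is a description of the letters and not a measured site.

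In the annotation GENCODE M21 of GRCm38, Gad1 (ENSMUSG00000070880) lies on chr2:70553072-70602014 and Gad2 (ENSMUSG00000026787) on chr2:22622205-22693874, both on the plus strand. Slc32a1 (ENSMUSG00000037771) lies on chr2:158610767-158615748 on the plus strand, with exons overlapping the antisense gene Gm14205, which had at most 29 reads in a library. Slc17a7 (ENSMUSG00000070570) lies on chr7:45163949-45176142 and Slc17a6 (ENSMUSG00000030500) on chr7:51622006-51671119, both on the plus strand, and Slc17a8 (ENSMUSG00000019935) on chr10:89574020-89621253 on the minus strand. Slc12a5 (ENSMUSG00000017740) lies on chr2:164960802-164999731 and Slc1a1 (ENSMUSG00000024935) on chr19:28835049-28913960, both on the plus strand. Exons of Slc1a1 overlap those of 4430402I18Rik on the other strand, which had at most 446 reads in a library. The strand setting of the counting is not given in the sources used here, and reads of such overlapping pairs cannot be told apart.

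The GABA genes were high in SST libraries and low, but never at 0 reads, in CamK and Grik libraries. Gad1 encodes the larger decarboxylase, which makes most GABA throughout the cell. In SST WT it stood at 2546, 2588, 2837 and 3087 CPM and in SST cKO at 2032, 2306, 2701 and 3205 CPM. In CamK WT Gad1 stood at 31.2, 55.4, 80.6 and 87.3 CPM and in CamK cKO at 54.7, 57.5 and 88.1 CPM. Grik WT libraries had 44.1, 48.5, 57.0 and 59.8 CPM of Gad1 and Grik cKO libraries 38.3, 44.9, 46.3 and 49.1 CPM. All SST libraries were far above all others, and the CamK and Grik ranges overlapped.

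Gad2 encodes the smaller decarboxylase, which is concentrated at nerve terminals. It stood at 1712, 1812, 1957 and 2064 CPM in SST WT and at 1369.7, 1587, 1785 and 2187 CPM in SST cKO. In CamK WT its values fell into a low and a high pair, 5.33 and 7.94 CPM in replicates 2 and 4 and 37.5 and 42.0 CPM in replicates 3 and 5. CamK cKO libraries had 11.05, 26.9 and 32.4 CPM of Gad2. In Grik WT Gad2 stood at 9.997, 12.6, 13.2 and 16.4 CPM and in Grik cKO at 7.03, 9.88, 11.5 and 16.5 CPM. The CamK WT libraries thus spread more widely than any other group for this gene, with a coefficient of variation of 83.0% against 20.2% in Grik WT and 8.23% in SST WT.

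Slc32a1 had the same shape. It stood at 360 to 428 CPM in SST WT and 334 to 485 CPM in SST cKO. In CamK WT it stood at 0.969 and 2.09 CPM in replicates 2 and 4 and at 9.31 and 12.3 CPM in replicates 3 and 5, the same low and high pairs as Gad2. CamK cKO libraries had 3.40, 7.80 and 8.40 CPM, Grik WT libraries 1.88 to 5.38 CPM and Grik cKO libraries 2.22 to 3.97 CPM. No CamK or Grik library reached the SST range for any of the 3 GABA genes.

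Glutamate packaging was split among the 3 vesicular transporters. Slc17a7 stood at 1270.5, 1420.4, 1748 and 1821 CPM in Grik WT and at 1568, 1769, 1819 and 1884 CPM in Grik cKO. In CamK WT it stood at 855, 897, 998 and 1069.7 CPM and in CamK cKO at 983, 1006 and 1029 CPM. SST WT libraries had 67.7, 71.8, 72.9 and 121 CPM of Slc17a7, and SST cKO libraries 67.8, 85.1, 124 and 194 CPM. The order was Grik above CamK above SST, with no overlap between populations in either genotype.

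Slc17a6 encodes the vesicular transporter that is known mainly from subcortical neurons. It stood at 29.2, 30.3, 31.9 and 33.5 CPM in CamK WT and at 39.1, 44.5 and 54.6 CPM in CamK cKO. Grik WT libraries had 1.83, 2.73, 3.23 and 3.36 CPM and Grik cKO libraries 1.51, 2.50, 3.48 and 3.55 CPM. In SST WT it stood at 0.563, 0.579, 0.626 and 1.31 CPM and in SST cKO at 0.541, 0.606, 1.505 and 2.31 CPM. CamK was above Grik in every library, which is the opposite of the order of Slc17a7, and the lower Grik and upper SST cKO values overlapped.

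Slc17a8 encodes the third vesicular glutamate transporter, known from neurons that also release other transmitters. It was high in SST only, at 9.75, 15.0, 17.4 and 20.2 CPM in SST WT and 12.1, 14.1, 17.1 and 17.5 CPM in SST cKO. In CamK and Grik it stood at 0.1004 to 0.449 CPM, which is 9 to 39 reads a library. This glutamate transporter thus shared its high level in SST with the GABA genes, whereas Slc17a7 was lowest there.

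Slc1a1 and Slc12a5 were at similar levels in all populations. Slc1a1 ranged from 73.7 CPM in an SST WT library to 152 CPM in CamK cKO replicate 5, and in the order of its 6 group means every neighbouring pair of groups overlapped. Slc12a5 ranged from 239 CPM in a Grik WT library to 485 CPM in CamK cKO replicate 5. Its SST WT libraries, at 305 to 339 CPM, did not overlap the next group in the order, Grik cKO, at 281 to 295 CPM.

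**Figure D1:**
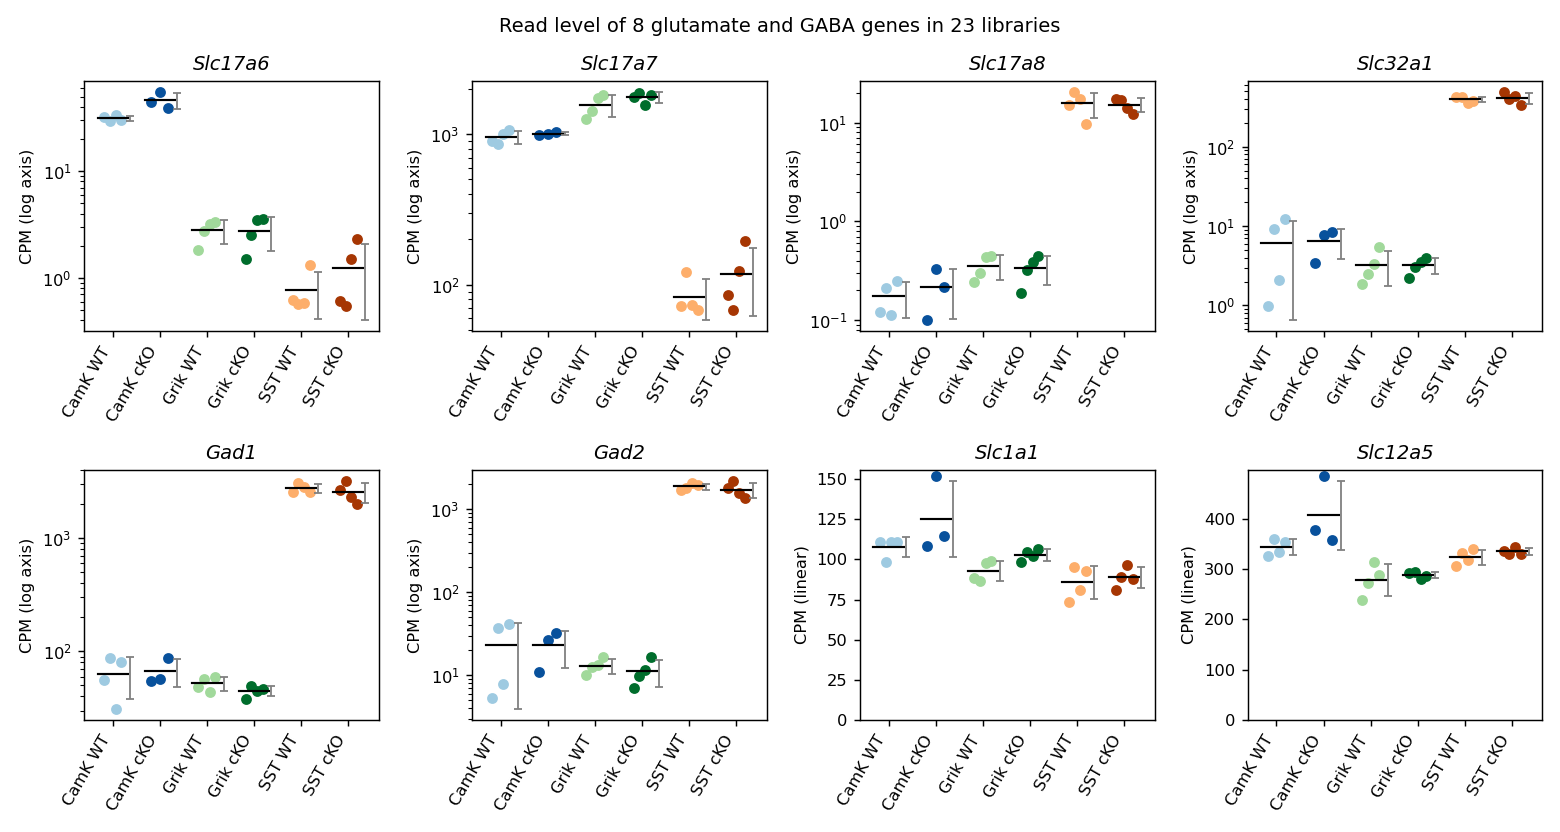
CPM of each gene (vertical axis, log scale except for Slc1a1 and Slc12a5) in every library (points) by group, with the mean (black bar) and SD (grey bar beside it; n = 3 for CamK cKO and 4 for the others). Gad1, Gad2, Slc32a1 and Slc17a8 are high in SST, Slc17a7 in Grik and CamK and Slc17a6 in CamK, whereas Slc1a1 and Slc12a5 stay between 73.7 and 152 CPM and between 239 and 485 CPM.

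Levels of different genes were compared as CPM per kilobase of annotated exon, in WT libraries (n = 4 each). On this level scale Slc17a7 led in Grik, at 290.2 ± 48.6 (SD), and in CamK, at 177 ± 18.02 (SD). Slc12a5 came next in both, at 46.2 ± 2.20 in CamK and 37.4 ± 4.16 in Grik (SD), followed by Slc1a1 at 13.1 ± 0.748 and 11.3 ± 0.757 (SD). Slc17a6 reached 5.78 ± 0.351 (SD) in CamK, and Gad1 8.33 ± 3.35 (SD), and these levels differed by less than the SD of Gad1. In SST the order was Gad1 at 362 ± 32.8, Gad2 at 321 ± 26.4 and Slc32a1 at 142 ± 11.3 CPM per kilobase (SD), above Slc12a5 at 43.5 ± 2.03 (SD). In the same SST libraries Slc17a7 stood at 15.5 ± 4.65 and Slc17a8 at 3.30 ± 0.935 CPM per kilobase (SD). The exon union of Gad1 is 7639 bases and its longest transcript 3601 bases, and on the longest transcript Gad1 in SST WT came to 768 ± 69.5 CPM per kilobase (SD) in place of 362. The rank order of the 8 genes in each WT group was the same on both lengths. On the longest transcript, Slc17a6 and Gad1 in CamK came to 7.55 ± 0.458 and 17.7 ± 7.11 CPM per kilobase (SD). There they differed by more than the SD of Gad1.

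**Figure D2:**
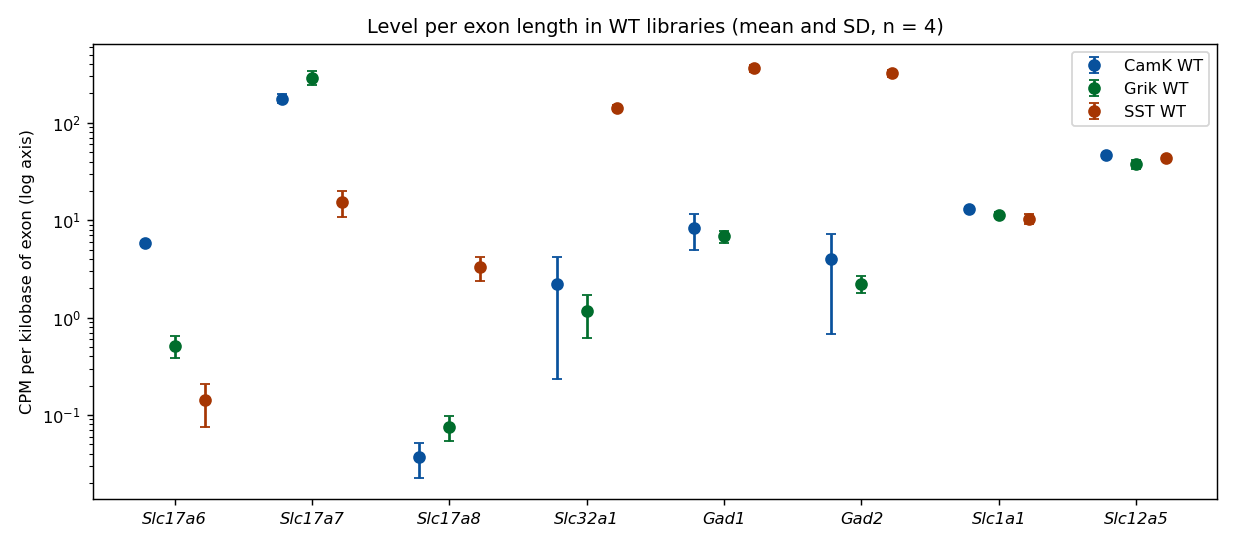
Level per exon length (vertical axis, CPM per kilobase of annotated exon, log scale) of the 8 genes in the WT libraries of CamK, Grik and SST, as mean and SD (n = 4). Slc17a7 is the highest gene in CamK and Grik, at 177 and 290.2, and Gad1 in SST, at 362.

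The population comparisons were tested with edgeR's quasi-likelihood test over all 18823 genes, with Benjamini-Hochberg adjustment and a threshold of 0.05. The list was proposed with such population levels known, so these tests describe sizes and errors rather than giving independent support. Between CamK and SST WT 7 of 8 genes passed, where 60.1% of all genes did. Gad2 was 81.3-fold lower in CamK (log2 fold change -6.34, SE 0.61, edgeR adjusted p 5.26e-08), Slc32a1 64.5-fold lower (-6.01, SE 0.61, adjusted p 1.06e-07) and Gad1 43.4-fold lower (-5.44, SE 0.28, adjusted p 1.70e-12). Slc17a8 was 88.7-fold lower in CamK (log2 fold change -6.47, SE 0.32, edgeR adjusted p 2.60e-14). Slc17a6 was 40.6-fold higher in CamK (log2 fold change 5.34, SE 0.42, edgeR adjusted p 1.20e-09) and Slc17a7 11.5-fold higher (3.52, SE 0.26, adjusted p 6.50e-10). Slc1a1 was higher in CamK by a small amount (log2 fold change 0.33, SE 0.09, edgeR adjusted p 0.00302). Slc12a5 differed by 0.09 (log2, 95% interval -0.08 to 0.26), which did not pass.

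Between Grik and SST WT 7 of 8 passed, where 57.3% of all genes did. Gad2 was 144-fold, Slc32a1 122-fold and Gad1 52.8-fold lower in Grik (log2 fold changes -7.17, SE 0.64, -6.93, SE 0.64, and -5.72, SE 0.28). Slc17a8 was 43.7-fold lower (log2 fold change -5.45, SE 0.30), Slc17a7 18.8-fold higher (4.23, SE 0.27) and Slc17a6 3.63-fold higher in Grik (1.86, SE 0.39). The edgeR adjusted p of these 6 genes was at most 0.000463. Slc12a5 was lower in Grik (log2 fold change -0.22, SE 0.08, edgeR adjusted p 0.0220), a call lost without Grik WT replicate 3 or 4 or without SST WT replicate 2 or 5 (adjusted p 0.137, 0.0650, 0.0559 and 0.0578). Slc1a1 differed by 0.12 (log2, 95% interval -0.07 to 0.31), which did not pass.

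Between CamK and Grik WT, both excitatory, 4 of 8 passed, where 42% of all genes did. Slc17a6 was 11.2-fold higher in CamK (log2 fold change 3.48, SE 0.37, edgeR adjusted p 3.20e-07). Slc12a5 was higher by 0.31 (SE 0.08, edgeR adjusted p 0.00325). Slc17a7 was lower in CamK (log2 fold change -0.71, SE 0.24, edgeR adjusted p 0.0226) and Slc17a8 (log2 fold change -1.02, SE 0.36, adjusted p 0.0242). The Slc17a7 call was lost without CamK WT replicate 3 or Grik WT replicate 5 or 6 (adjusted p 0.0511, 0.0506 and 0.0581). The Slc17a8 call was lost without CamK WT replicate 2 or 4 or Grik WT replicate 5 or 6 (adjusted p 0.0714, 0.0797, 0.0708 and 0.0731), and with limma-voom (0.242). Gad1, Gad2 and Slc32a1 differed by 0.28, 0.83 and 0.92 (log2, SE 0.23, 0.50 and 0.55) and did not pass. Without CamK WT replicate 2, Gad2 and Slc32a1 passed at 1.16 and 1.27 (log2, edgeR adjusted p 0.0425 and 0.0311), and without CamK WT replicate 4 Gad1 passed at 0.51 (adjusted p 0.0266). Slc1a1 differed by 0.21 (log2, SE 0.09, edgeR adjusted p 0.0640) and passed without CamK WT replicate 3 (0.0425).

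The libraries labelled cKO gave the same comparisons with group means of their own, in a fit that shares its filter, scaling and estimate of spread with the WT tests. Between CamK and SST cKO 8 of 8 genes passed (56.4% of all genes), between Grik and SST cKO 7 of 8 (57.9%) and between CamK and Grik cKO 4 of 8 (35.7%). Of the genes called in WT, 7 of 7, 7 of 7 and 3 of 4 were called again in the same direction, in the same order of comparisons. The exception was Slc17a8 between CamK and Grik, at -0.65 in cKO (log2, SE 0.38, edgeR adjusted p 0.193). Slc17a6 was 16.7-fold higher in CamK than Grik cKO (log2 fold change 4.06, SE 0.39, adjusted p 9.60e-08). Slc17a7 was lower (log2 fold change -0.81, SE 0.26, adjusted p 0.0220), a call lost without any 1 of the 3 CamK cKO libraries (0.0568 to 0.0676). Slc1a1 was higher in CamK than Grik cKO by 0.28 (log2, SE 0.10, edgeR adjusted p 0.0280), and the difference was 0.12 without CamK cKO replicate 5 (adjusted p 0.370) and 0.27 without Grik cKO replicate 1 (0.0612). Without that CamK cKO library the Slc12a5 difference between CamK and SST cKO went from 0.28 (log2, edgeR adjusted p 0.00780) to 0.13 (0.164). The Slc12a5 difference between Grik and SST cKO, at -0.22 (log2, edgeR adjusted p 0.0232), was lost without any 1 of the 4 Grik cKO libraries or without SST cKO replicate 5 (adjusted p 0.0513 to 0.0796).

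None of the 8 genes passed the test between genotypes. In CamK, Grik and SST, 0 of 8 passed in edgeR's quasi-likelihood test, where 0.0106% of all genes passed in each. DESeq2 and limma-voom also called 0 of the 8 in each population. At an unadjusted p under 0.05 there were 2 in CamK, where 7.05% of all genes were, 0 in Grik (4.88%) and 0 in SST (5.85%). Those in CamK were Slc12a5, higher in cKO by 0.24 (log2, SE 0.09, unadjusted p 0.00971, adjusted p 0.619 in edgeR), and Slc1a1, higher by 0.21 (SE 0.10, unadjusted p 0.0414, adjusted p 0.688 in edgeR). Both were highest in CamK cKO replicate 5, at 485 and 152 CPM, and without it the differences were 0.10 and 0.05 (log2). All 8 fold changes were above 0 in CamK, 3 of 8 in Grik and 5 of 8 in SST, where 49.5, 50.8 and 56% of all genes were, with TMM and with relative log expression scaling alike for the 8 genes. These signs are given as values, since none passed the test.

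Slc17a6 in CamK was the only gene of the 8 whose cKO and WT libraries did not overlap in any population. In CamK 6.75% of all genes did not overlap, in Grik 4.59% (0 of 8 here) and in SST 2.7% (0 of 8). It averaged 46.1 ± 7.86 CPM in CamK cKO (SD, n = 3) and 31.2 ± 1.90 CPM in CamK WT (SD, n = 4), with 3 of 3 cKO libraries above all WT libraries. The log2 fold change was 0.56 (SE 0.36, 95% interval -0.19 to 1.31), with an edgeR adjusted p of 0.783. An exact two-sided permutation test gave p = 0.0571, the smallest that 3 libraries against 4 allow. Over 13 alternatives the log2 fold change was 0.42 to 0.67 and the adjusted p 0.173 to 1. The effect in CamK differed from that in Grik by 0.58 (log2, SE 0.51) and from that in SST (log2 fold change -0.13, SE 0.54), and neither difference passed. The adjusted p was 0.869 against Grik and 0.965 against SST in edgeR. Of the marker lists of other cell types, the endothelial and the somatostatin interneuron sums in CamK cKO were all above those in CamK WT, and the others overlapped. The 4 somatostatin interneuron markers summed to 127.7 to 145.9 CPM in cKO and 114.5 to 124.5 CPM in WT. Most of that sum was Satb1, at 113.8 to 131.3 CPM in cKO and 103.9 to 108.1 CPM in WT. Sst itself overlapped, at 5.06 to 6.98 CPM in cKO and 3.87 to 7.70 CPM in WT. Elfn1 overlapped too, at 8.05 to 8.37 CPM in cKO and 5.68 to 8.75 CPM in WT. The 4 endothelial markers summed to 2.44 to 4.22 CPM in cKO and 0.915 to 1.82 CPM in WT, the 5 oligodendrocyte markers to 206 to 259 and 139 to 209 CPM, and the 5 astrocyte markers to 20.9 to 29.7 and 13.5 to 21.9 CPM. The 5 microglia markers summed to 1.75 to 4.95 CPM (median 2.41) in cKO and 1.57 to 4.02 CPM (median 2.33) in WT. The 3 CA1 field markers summed to 804 to 1333 CPM in cKO and 911 to 1238 CPM in WT. The 4 CA3 field markers summed to 104 to 235 CPM in cKO and 159 to 189 CPM in WT. In CamK cKO replicates 5, 4 and 6, Slc17a6 was at 54.6, 44.5 and 39.1 CPM. Wfs1, a CA1 marker, was at 612, 376 and 251 CPM there, and at 290 to 404 CPM in WT. None of these markers passed between the CamK genotypes, and the smallest edgeR adjusted p was 0.400, for Aldh1l1, an astrocyte gene. Their part in the CamK differences was not tested.

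In SST, Slc17a6 and Slc17a7 had the largest genotype differences of the 8, at 0.70 (log2, SE 0.41, edgeR adjusted p 0.842) and 0.50 (SE 0.24, adjusted p 0.833). SST cKO replicates 5 and 7 exceeded every WT library in both genes, and replicates 3 and 4 were not. Without replicate 7 the differences of Slc17a6 and Slc17a7 were 0.20 and 0.15 (log2). The excitatory markers summed to 781 to 1095 CPM in SST cKO, highest in replicate 7, and to 821 to 966 CPM in SST WT. The 5 oligodendrocyte markers summed to 227 to 954 CPM in SST cKO (median 606) and 263 to 576 CPM in SST WT (median 435), and the 5 microglia markers to 6.82 to 20.7 CPM (median 10.9) and 6.505 to 8.01 CPM (median 7.07). The 5 astrocyte markers summed to 37.2 to 96.7 CPM in SST cKO and 39.6 to 80.8 CPM in SST WT. The part of these markers in the SST differences was not tested. The differences of Gad1, Gad2 and Slc32a1 between genotypes were between -0.23 and 0.08 (log2) over the 3 populations. For Gad2 the 95% intervals were -1.11 to 1.14 (CamK), -1.28 to 0.85 (Grik) and -1.15 to 0.90 (SST), which leave room for changes of more than 1 log2 unit each way. For Slc12a5 in Grik and SST they were narrower, -0.12 to 0.22 in both. None of the 8 genes had a genotype effect that differed between populations by the test, where 0.00531% of all genes did between CamK and Grik, 0% between CamK and SST and 0.0106% between Grik and SST, and at an unadjusted p under 0.05 the count was 0 of 8 in each, where 6.5, 7.85 and 3.86% of all genes were, in the same order. DESeq2 and limma-voom called 0 of the 8 for these differences too.

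**Figure D3:**
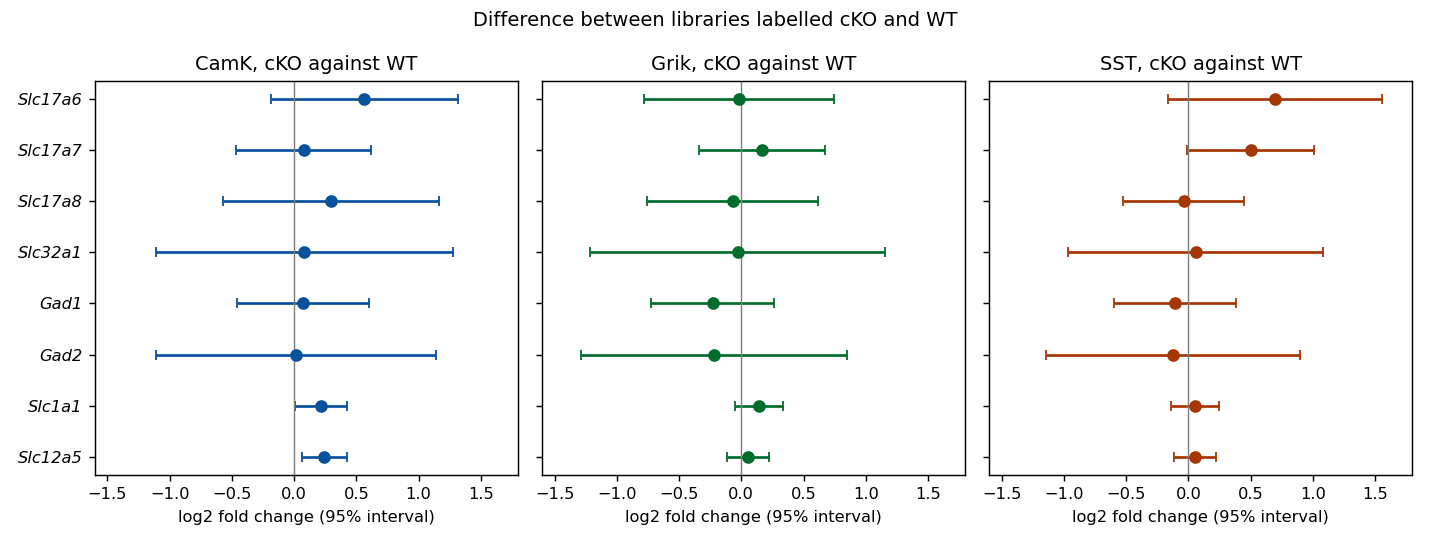
Log2 fold change of the libraries labelled cKO over WT (horizontal axis, points) with 95% intervals (bars) for the 8 genes in CamK, Grik and SST, from edgeR's fit of all 23 libraries. The intervals of Slc12a5 and Slc1a1 in CamK lie above 0 at an unadjusted level, from 0.06 and 0.0044, and all others hold 0.

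Ratios of reads between 2 genes of the same library do not depend on scaling between libraries, and 3 were compared, in 18 tests by exact two-sided permutation with Benjamini-Hochberg adjustment. None passed after adjustment, and 4 libraries against 4 cannot give an exact p below 0.0286. The ratio of Gad1 to Gad2 was 1.30 to 1.70 in SST WT and 1.45 to 1.51 in SST cKO. It was 3.33 to 4.85 in Grik WT and 1.92 to 10.4 in CamK WT, all above SST WT (exact p 0.0286, adjusted p 0.0857 for each). The highest ratio, 10.4, was in CamK WT replicate 2, where Gad2 was lowest. The 3 dentate granule cell markers summed to 97.9 to 259 CPM in CamK WT, 139.9 to 149.7 CPM in Grik WT and 27.6 to 38.8 CPM in SST WT. Prox1, one of them, was 139 CPM in CamK WT replicate 2, the highest of that group, and 49.2 to 110.2 CPM in the other 3. The part of these markers in the ratios was not tested.

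The ratio of Slc17a6 to Slc17a7 was 0.0283 to 0.0355 in CamK WT and 0.0380 to 0.0543 in CamK cKO, which did not overlap (exact p 0.0571, adjusted p 0.147). In Grik WT it was 0.00144 to 0.00193 and in SST WT 0.00466 to 0.0193. CamK WT was above both and SST WT above Grik WT, without overlap (exact p 0.0286, adjusted p 0.0857 for each of the 3). The ratio of Slc32a1 to Gad1 was 0.127 to 0.162 in SST WT and 0.0387 to 0.0899 in Grik WT, without overlap (exact p 0.0286, adjusted p 0.0857). In CamK WT the ratio spread from 0.0175 to 0.153 and overlapped both.

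**Figure D4:**
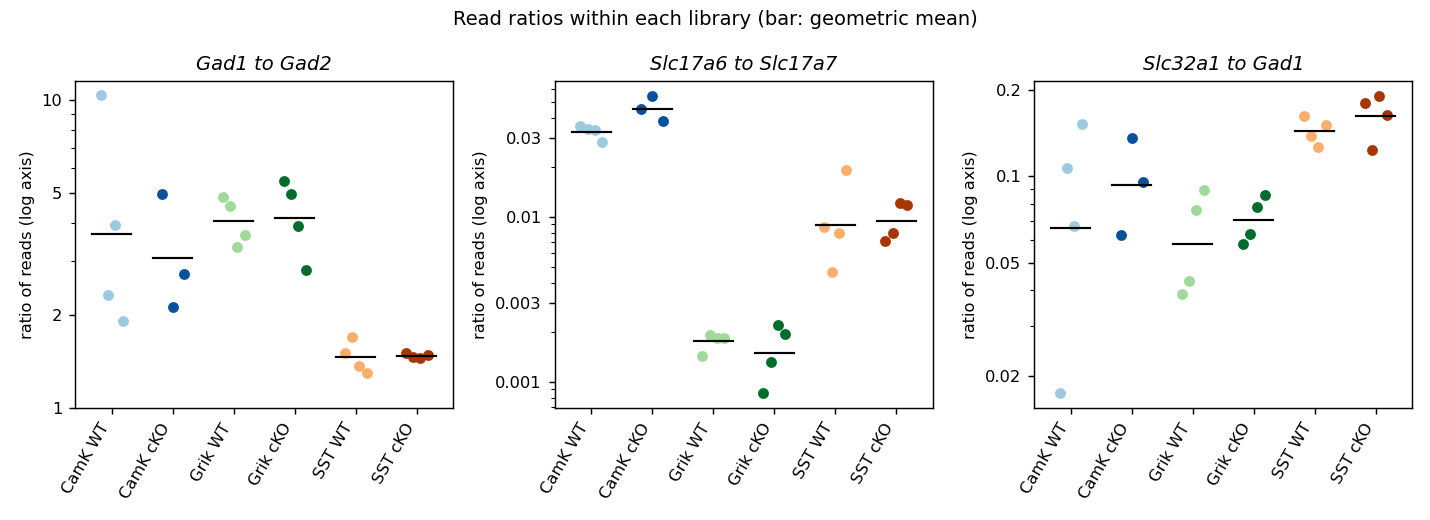
Ratio of read counts between 2 genes within each library (vertical axis, log scale) for Gad1 to Gad2, Slc17a6 to Slc17a7 and Slc32a1 to Gad1, by group, with points for libraries and bars for geometric means. The Gad1 to Gad2 ratio is 1.30 to 1.70 in the SST libraries of both genotypes and 1.92 to 10.4 in CamK and Grik.

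The low level of each gene in the population of the other transmitter type was set beside markers of that type. Fewer cells of a type and less RNA per cell cannot be told apart in such bulk libraries. In WT, Gad1, Gad2 and Slc32a1 stood in CamK at 2.30, 1.23 and 1.55% of their SST levels and in Grik at 1.89, 0.693 and 0.821%. The 10 inhibitory markers lay both above and below these shares. Leaving aside Vip, at 57.0% in CamK WT and 1727% in Grik WT, the other 9 ran from 0.133% (Npy) to 4.37% (Dlx6) of SST WT in CamK WT and from 0.302% (Lhx6) to 4.17% (Erbb4) in Grik WT. Slc17a7 in SST WT stood at 8.72% of its CamK WT level and 5.32% of its Grik WT level, and Slc17a6 at 2.46 and 27.6%, so the order of these genes turned with the population they were set against. The excitatory markers Camk2a, Neurod2, Nrgn and Neurod6 stood in SST WT at 17.9, 7.98, 5.59 and 4.82% of CamK WT and at 15.9, 6.69, 6.45 and 3.11% of Grik WT.

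Over the 8 SST libraries, Slc17a7 moved with the mean of the 5 excitatory markers on the log2 scale (Pearson r 0.93, exact permutation p 0.00221, adjusted p 0.00516 over 8 relations; Spearman rho 0.81, exact p 0.0218, adjusted 0.0476). Without the 2 libraries farthest from the median of the markers r was 0.71, and within genotype it was 0.93 (libraries exchanged only within a genotype, exact permutation p 0.00521, adjusted p 0.0417). Slc17a6 gave r = 0.79 in SST (exact permutation p 0.0140, adjusted 0.0186; rho 0.60, p 0.132, adjusted 0.151), but -0.041 without those 2 libraries, so the relation rests on them, and within genotype r was 0.76 (exact permutation p 0.115, adjusted 0.115). SST cKO replicate 7 was the highest of the 8 in both genes and in the excitatory markers, whose sum there was 1095 CPM.

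Over the 7 CamK libraries, Gad1, Gad2 and Slc32a1 moved with the 10 inhibitory markers, at r = 0.88, 0.96 and 0.94 (exact permutation p 0.00258, 0.00198 and 0.00238, adjusted p 0.00516 each; rho 0.93, 0.86 and 0.86, exact p 0.00675, 0.0238 and 0.0238, adjusted 0.0476 each). Without the 2 farthest libraries r was 0.97, 0.89 and 0.86, and within genotype 0.88, 0.96 and 0.94 (exact permutation p 0.0139, 0.0764 and 0.0764, adjusted p 0.0556, 0.0873 and 0.0873), where none passed after adjustment. CamK WT replicates 2 and 4, the low pair of Gad2 and Slc32a1, had inhibitory sums of 11.2 and 10.7 CPM, and replicates 3 and 5, the high pair, 27.7 and 31.4 CPM. Over the 8 Grik libraries only Slc32a1 of the 3 passed, at r = 0.82 (exact permutation p 0.00873, adjusted 0.0140; rho 0.67, p 0.0831, adjusted 0.133), 0.59 without the 2 farthest and 0.83 within genotype (exact permutation p 0.0260, adjusted 0.0694, not passed). Gad2 and Gad1 in Grik gave r = 0.70 and 0.59 (exact permutation p 0.0520 and 0.115, adjusted 0.0594 and 0.115; rho 0.33 and 0.60, exact p 0.428 and 0.132, adjusted 0.428 and 0.151). Without the 2 farthest libraries these were -0.0059 and 0.52, and within genotype 0.73 and 0.70 (exact permutation p 0.0729 and 0.0660, adjusted 0.0873 each). The part of RNA from the other cell type in these low levels was not tested.

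**Figure D5:**
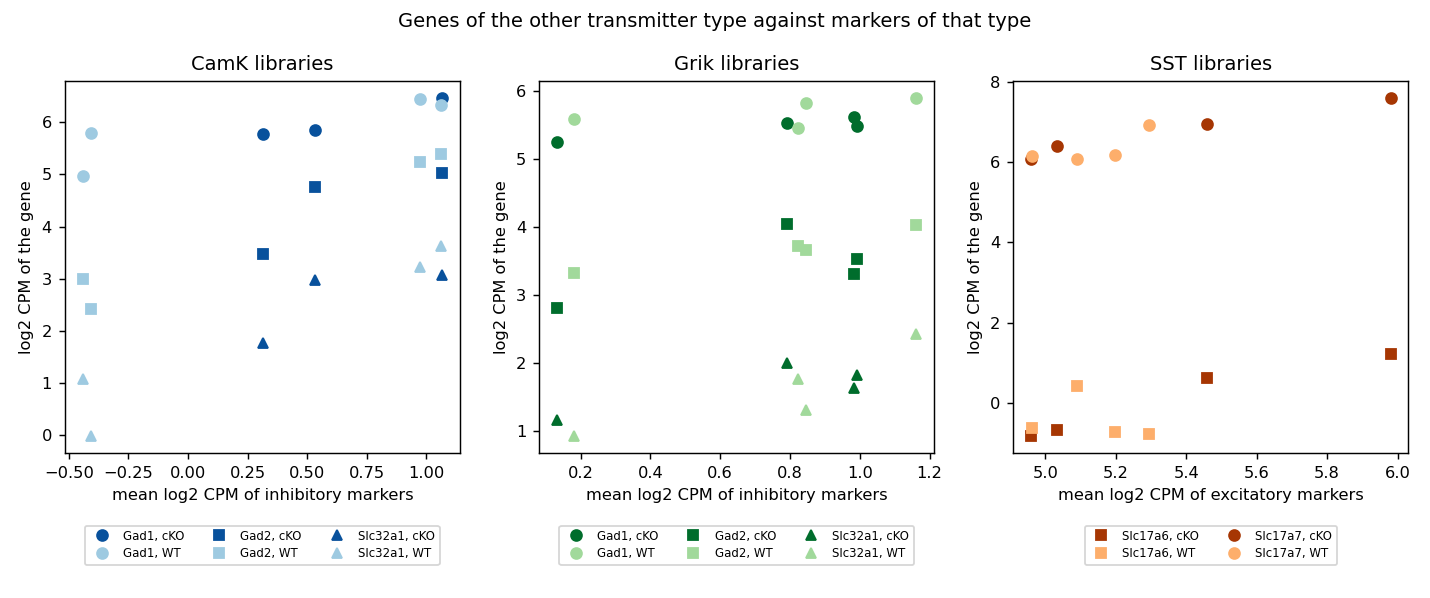
Log2 CPM of genes of the other transmitter type (vertical axis) against the mean log2 CPM of markers of that type (horizontal axis) in CamK, Grik and SST libraries, 1 point per gene and library. In CamK the 3 GABA genes rise along the inhibitory markers (r 0.88 to 0.96), and in SST Slc17a7 rises along the excitatory markers (r 0.93).

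The genes whose log2 CPM followed each of the 8 most closely over the 23 libraries were taken from 12965 genes with a symbol and a mean of at least 1 CPM. These correlations are descriptions, since the libraries share populations and most of the variation lies between these. Gad2 and Slc32a1 were each other's nearest gene (r = 0.997), followed for Slc32a1 by Npffr1, a neuropeptide receptor gene, and Dlx1, an interneuron transcription factor gene, and for Gad2 by Dlx1 and Nxph1. Gad1 was followed most closely by Lhx6, an interneuron transcription factor gene, Zcchc12 and Vstm2a. Slc17a8 was followed by Kcnh2, a potassium channel gene, and Spsb4 (r = 0.99 each), and correlated with Gad1 at 0.98, in contrast to -0.93 with Slc17a7. Slc17a7 was followed by Faah, which encodes an enzyme that breaks down endocannabinoids, Nell2 and Adora1, an adenosine receptor gene. For Slc17a6 the nearest were Rspo3, Ngef and Npas2 (r = 0.98 each), and its correlation with Slc17a7 was lower, at 0.60. Slc1a1 and Slc12a5 had no gene as close, with r = 0.89 to 0.90 for Slc24a3, Fam234b and Dpp6 and 0.86 to 0.88 for Pcdhb17, Efnb2 and Adgrl3.

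The other genes of the pathway, 26 for glutamate, glutamine, GABA and chloride handling, also differed between populations. Between CamK and SST WT 4 were higher and 19 lower in CamK, between Grik and SST WT 4 higher and 17 lower in Grik, and between CamK and Grik WT 2 higher and 11 lower in CamK. Over all genes, 29.5% were called higher and 30.5% lower in CamK than SST, 28.1 and 29.2% in Grik than SST, and 20.9 and 21.1% in CamK than Grik. Their median log2 fold changes were -0.59, -0.38 and -0.19, beside -0.02, -0.03 and 0.01 over all genes tested. In the genotype comparisons 0 of the 26 passed in edgeR's test, with 6, 0 and 3 of them at an unadjusted p under 0.05 in CamK, Grik and SST. Over all genes 0.0106% passed in each, and 7.05, 4.88 and 5.85% had an unadjusted p under 0.05. The medians there were 0.18 in CamK, 0.04 in Grik and 0.04 in SST, beside -0.0014, 0.0035 and 0.02 over all genes.

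In GABA breakdown, Abat, the GABA transaminase gene, was at 1197 CPM in SST WT, 128 in CamK WT and 118 in Grik WT. It was lower than in SST in CamK (log2 fold change -3.22, SE 0.11, edgeR adjusted p 2.29e-17) and in Grik (-3.34, SE 0.11, adjusted p 8.50e-18). Aldh5a1, whose enzyme takes the next step to succinate, was lower in Grik than SST (log2 fold change -1.97, SE 0.10, edgeR adjusted p 2.16e-14). Aldh5a1 averaged 267 CPM in SST WT, 68.3 in Grik WT and 64.0 in CamK WT. Both steps of GABA breakdown therefore had higher mean RNA levels in SST WT than in Grik WT and in CamK WT. In glutamate supply, Gls2, which encodes a glutaminase, was higher in CamK than Grik by 0.54 (log2, SE 0.09, edgeR adjusted p 1.52e-05).

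Glul, the glutamine synthetase gene, known mainly from astrocytes, was lower in CamK than Grik (log2 fold change -1.36, SE 0.10, edgeR adjusted p 3.58e-11), at 87.7 against 225 CPM. The 5 astrocyte markers summed to 13.5 to 21.9 CPM in CamK WT and 34.5 to 41.2 CPM in Grik WT, and the 5 oligodendrocyte markers to 139 to 209 and 656 to 886 CPM, and their part in this difference was not tested. Of the amino acid carriers, Slc38a3 was lower in CamK than SST (log2 fold change -2.51, SE 0.35, edgeR adjusted p 1.23e-06) and Slc38a5 higher by 0.85 (SE 0.35, adjusted p 0.0404), both below 5 CPM in these groups. The astrocyte sum was 13.5 to 21.9 CPM in CamK WT and 39.6 to 80.8 CPM in SST WT, and its part in these differences was not tested. Slc30a3, which encodes the zinc transporter of glutamatergic vesicles, was higher in CamK than Grik by 0.76 (log2, SE 0.14, edgeR adjusted p 9.28e-05) and than SST by 0.78 (SE 0.14, adjusted p 3.82e-05). Slc12a7, a relative of Slc12a5 among the potassium chloride cotransporters, was higher than in SST by 0.73 in CamK (log2, SE 0.30, edgeR adjusted p 0.0401) and by 1.04 in Grik (SE 0.30, adjusted p 0.00489), at 0.810 CPM in SST WT.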

How the data were processed

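The authors deposited 1 table of raw read counts, as whole numbers for each Ensembl gene ID and library. The submitters' processing notes name Trimmomatic, STAR and GRCm38, and the 4 summary lines have the form of STAR's gene counting. The versions, annotation release and strand setting are not given in the sources used here. The summary lines, 12.4 to 18.4% of reads, name no gene and entered neither library sizes nor tests. Of 45706 IDs, 45143 matched a symbol in GENCODE M21. Columns were matched to samples by name, and groups taken from the titles. Replicates of a group all differed by more than sampling noise (chi-square per degree of freedom 8.27 to 198).

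Tests used edgeR 4.0.16 (R 4.3.3): filterByExpr over the 6 groups, TMM scaling, and glmQLFit (robust) and glmQLFTest on all 23 libraries together, with 17 residual degrees of freedom and a biological coefficient of variation of 16.3%. Benjamini-Hochberg adjustment ran over 18823 genes in each of 12 comparisons. Standard errors came from the fold change and the F statistic (log2 fold change over root F). Log2 CPM used a prior count of 2. The function was tested on simulated counts. Tried instead were scaling by relative log expression, testing without a filter, DESeq2 1.42.0, limma-voom (limma 3.58.1), a fit of the compared groups alone, the replicate number as a block, 0.5 reads added to ratios, the longest transcript as length, correlations within genotype, and leaving out each library. The text names the 8 genes, Khdrbs3, marker genes, the 3 genes correlated most closely with each of the 8, and up to 3 higher and 3 lower called pathway genes per WT comparison; 4 genes chosen under this rule are not reported here. The genes, lists and tests were chosen with earlier results of these data known. Splicing was not analysed here. Promoters are from RefSeq (GRCm38.p6).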

Additional observations from a re-analysis of the deposited data

Results flagged for a closer look

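In 4 of 55 groups of 4 libraries examined, 1 library lay far from the other 3 by Dixon's test at the 95% level, where chance alone flags about 1 in 20 groups, or 2.75. Slc17a6 in SST WT was 1.309 CPM in replicate 5 and 0.563 to 0.626 CPM in the others. Slc17a7 in SST WT was 120.8 CPM in replicate 2, the library with the lowest Sst level (159 CPM), and 67.7 to 72.9 CPM in the others. Slc1a1 in CamK WT was 98.63 CPM in replicate 3 and 110.8 to 111.1 CPM in the others. The log2 ratio of Slc17a6 to Slc17a7 reads in Grik WT was -9.438 in replicate 3, the lowest of that group, and -9.08 to -9.02 in the others.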

How the results depend on the processing

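The differences of the 8 genes between populations kept their direction under all alternatives run, and the counts of all genes called between populations stayed within 1.5 times. The small genotype counts moved most. Against 2, 2 and 2 genes called between genotypes in CamK, Grik and SST, DESeq2 called 16, 14 and 11. For the differences of effects (CamK against Grik, CamK against SST, Grik against SST) it called 11, 14 and 4 against 1, 0 and 2. SST gave 1 without the filter and 1 with limma-voom. Fitting the compared groups alone gave 1, 5 and 0. Deviations of same-numbered libraries from their group means correlated at -0.222 to 0.267, so the numbers were not taken to pair the samples. A block on the replicate number within each population gave 5 genes each in CamK and SST. It gave 0, 3 and 4 for the differences of effects, and left 3 residual degrees of freedom. Only numbers present in both genotypes inform the genotype differences of this fit. These were 4 and 5 in CamK, 3 and 4 in Grik, and 3 and 5 in SST. Under this block the sign of some genotype differences (log2) turned: Slc17a7, Slc32a1 and Gad2 in CamK to -0.055, -0.082 and -0.11, Slc17a6, Slc17a8, Slc32a1 and Gad2 in Grik to 0.64, 0.63, 0.79 and 0.30, Slc17a8 in SST to 0.27, and the Slc17a6 difference of effects to -0.012 (CamK against Grik) and 0.48 (CamK against SST). For the population comparisons a second block, on the replicate number across populations, left 11 residual degrees of freedom. This second block ended the edgeR calls of Slc17a8 between CamK and Grik WT (adjusted p 0.0712) and Slc1a1 between CamK and Grik cKO (0.191). It also ended that of Slc12a5 between Grik and SST cKO (0.0924). It made calls of Slc1a1 between CamK and Grik WT (0.0455) and between Grik and SST cKO (0.0105). Slc1a1 was also called between CamK and Grik WT with the compared groups alone (0.0296), and between Grik and SST cKO with them (0.0103) and with limma-voom (0.0460). Between CamK and Grik cKO, Gad1 was called with DESeq2 (0.0493) and the compared groups alone (0.0176), and Slc32a1 with the latter (0.0229). Limma-voom turned the sign of Slc32a1 in Grik (0.053) and of the Slc17a6 difference of effects between CamK and SST (0.012). Within genotype, 5 correlations with markers no longer passed by exact permutation: Slc17a6 in SST (r = 0.76, adjusted p 0.115), Gad1, Gad2 and Slc32a1 in CamK (0.88, 0.96 and 0.94; 0.0556, 0.0873 and 0.0873) and Slc32a1 in Grik (0.83, 0.0694). Fewer arrangements are possible within genotype. Leaving out each library in turn, genes called between genotypes ranged from 1 to 4 in CamK libraries, in Grik from 1 to 9 and in SST from 0 to 2, and for the differences of effects from 0 to 2, 0 to 1 and 2 to 3. Of the 8 genes, 2 to 5 were called between CamK and Grik WT, 2 to 4 between CamK and Grik cKO, 7 to 8 between CamK and SST cKO, and 6 to 7 between Grik and SST in each genotype. Genotype differences (log2) that crossed 0 in CamK were Gad1 (-0.18 to 0.27), Gad2 (-0.30 to 0.47), Slc17a8 (-0.13 to 0.64) and Slc32a1 (-0.26 to 0.66). In Grik they were Slc12a5 (-0.014 to 0.11), Slc17a6 (-0.17 to 0.18), Slc17a8 (-0.24 to 0.12) and Slc32a1 (-0.22 to 0.31), in SST Slc17a8 (-0.21 to 0.095), Slc1a1 (-0.014 to 0.092) and Slc32a1 (-0.027 to 0.15), and the Slc17a6 difference of effects between CamK and SST ran from -0.51 to 0.36. The cause of these shifts was not tested. Slc17a8 in CamK and Grik rests on 9 to 39 reads a library, which limits its precision.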
